A study of Homo sapiens with 12 samples.

Results

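The SLC16 family encodes the monocarboxylate transporters, membrane proteins of which the best studied carry lactate, pyruvate and ketone bodies across the cell membrane together with a proton. Some members need a chaperone, basigin (BSG) or embigin (EMB), to reach the membrane, and several family members have other or unsettled substrates. In the kidney the tubule takes up filtered lactate, and the proximal tubule burns lactate and fatty acids and makes glucose, so such carriers belong to its basic metabolism. Of 9 SLC16 genes listed for study, 5 were named by a probe set in the annotation used: SLC16A4, SLC16A5, SLC16A7, SLC16A9 and SLC16A14. They had 11 probe sets among 54675 on the array. SLC16A1, SLC16A3, SLC16A6 and SLC16A13 were not analysed here. The family was chosen on the values of SLC16A14, which differed between Fk and control cultures at 12 h and 48 h, so its Fk and control values are given as a description, without a test. The same holds for the Fk and control values of the other members, and for the change of SLC16A14 between the times.

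The cells were HK-2, a human cell line made immortal from the epithelium of the kidney's proximal tubule. Each group held 3 arrays: Fk for 12 h, control vehicle for 12 h, Fk for 48 h and control vehicle for 48 h. The labels do not expand the name Fk, the vehicle is not named and a dose was not used here. All 12 cultures were grown as a monolayer in medium with 5 mM glucose, EGF, hydrocortisone, insulin, transferrin and selenite, and were treated 24 h after seeding at about 90% confluence. Arrays of a group are named biological replicates in the labels, with no word on what set their cultures apart.

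Values are log2 GCRMA values per probe set. For each gene the brightest of its probe sets with 1 gene symbol was used. The gene was tested where this probe set was at 4 or more on 3 or more arrays, as 10784 of 19775 genes were. Array medians lay between 2.85 and 2.94, so values near 3 were not shown to be above background. The array Fk_12h replicate 3 stood apart: its correlation with the other Fk arrays at 12 h was 0.942 to 0.946, against 0.994 between those arrays, and 1660 genes lay over 1 log2 unit from their mean. Its part in the results was not tested, and results that rest on it are given with and without it. Of the epithelial markers, 5 of 5 reached the level of 4. Of 10 measured genes listed as proximal tubule markers, PAX8 and CDH16 reached it on all 12 arrays and GGT1 on 1. Those of the mature brush border and its endocytic receptors (LRP2, CUBN, SLC34A1, ANPEP) lay under 4 on every array. So did SLC5A2, SLC22A6 and AQP1. These values do not show a proximal tubule identity. Among 5 measured markers of other cells, PTPRC of leukocytes and NPHS1 of podocytes lay under 4 on every array. COL1A1 of fibroblasts was at 4 or more on all 12 arrays, with group means of 7.71 to 8.58. AQP2 of the collecting duct was so on all 12 too and PECAM1 of endothelium on 6. Their group means, 4.20 to 4.27 and 3.70 to 4.25, lay close to that level, so they are not taken as detected. The part of these markers in the results was not tested.

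SLC16A14 encodes MCT14, an orphan member of the family whose substrate is not established. RefSeq places the gene on chromosome 2 at 230034982 to 230068924 of GRCh38.p14. Its value was above the level of 4 on all 6 Fk arrays and under it on all 6 control arrays. At 12 h its single probe set read 5.64, 5.84 and 9.69 in Fk cultures, against 2.55, 2.92 and 3.01 in control cultures. At 48 h it read 5.23, 4.99 and 5.29 in Fk cultures, against 2.50, 2.32 and 2.61 in control cultures. At neither time did the Fk range meet the control range. Of all tested genes, 16.4% were separated in this way at 12 h (9.91% with Fk higher) and 10.2% at 48 h (6.14% with Fk higher). Because the gene was chosen for this contrast, nothing is read from these shares. In RNA of whole cultures, more cells with the transcript and more transcript per cell cannot be told apart.

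The difference in means was 4.23 log2 units at 12 h and 2.69 at 48 h. It was 2.91 at 12 h without Fk_12h replicate 3, the array that stood 3.95 log2 units above the mean of the other Fk arrays. Since the control signal was under the level of 4, a second reading took every value under 4 as 4. Counted from that level, the Fk cultures were at least 8.33-fold higher than the control cultures at 12 h, at least 3.34-fold without Fk_12h replicate 3, and at least 2.25-fold at 48 h. SLC16A14 passed the filter on low values through its Fk arrays alone.

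Among the groups, SLC16A14 was highest in Fk cultures at 12 h, next in Fk cultures at 48 h, and lowest in the control groups. All Fk arrays at 48 h, up to 5.29, lay under all Fk arrays at 12 h, from 5.64. Of all tested genes, 38.7% were separated between these groups in either direction, 19.0% with 48 h higher. The means of Fk cultures at 48 h and 12 h differed by -1.89, or by -0.57 without Fk_12h replicate 3. The control groups overlapped (2.32 to 2.61 at 48 h and 2.55 to 3.01 at 12 h), both under 4, and no fold is given between them.

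**Figure D1:**
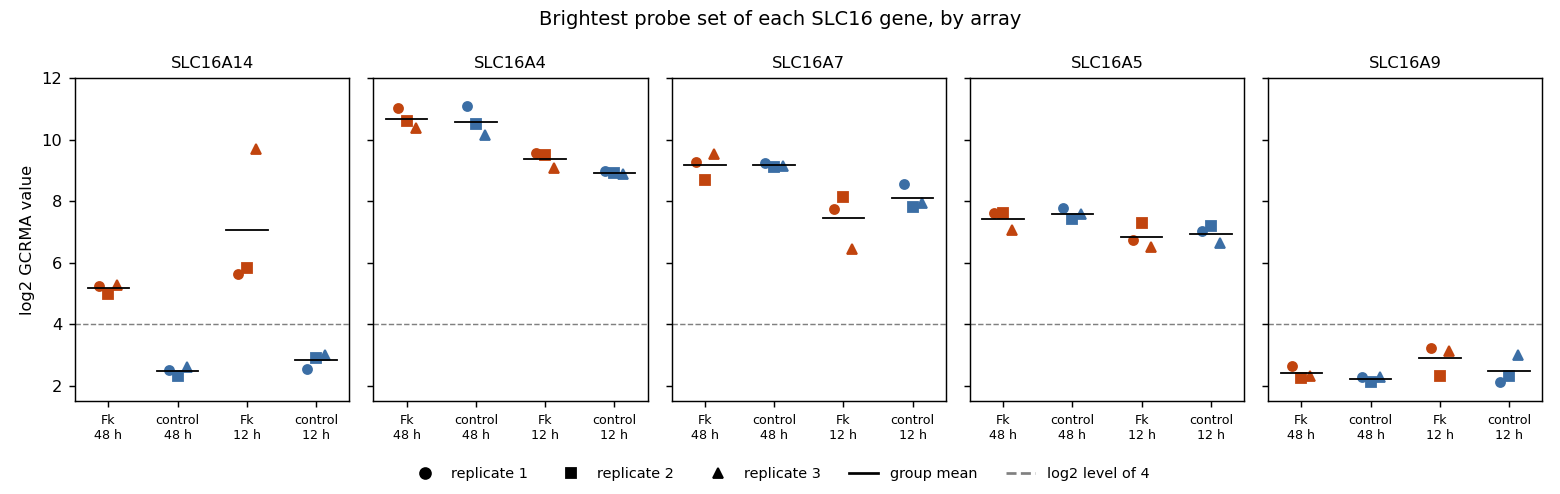
Log2 GCRMA value of the brightest probe set of each measured SLC16 gene on each of the 12 arrays, with the group mean as a bar and the level of 4 dashed. SLC16A14 was above 4 on the Fk arrays and under 4 on the control arrays, SLC16A4 and SLC16A7 were higher at 48 h than at 12 h in Fk and control cultures, and SLC16A9 was under 4 on every array.

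The upstream sequence of SLC16A14 is shown because this gene carried the largest Fk difference of the family. It is the RefSeq window of 250 bases before the gene's start, on the minus strand of GRCh38.p14 at chr2:230068925-230069174, written 5′ to 3′. Capitals mark the match to a searched motif, here a TATA box (TATAAA).
SLC16A14: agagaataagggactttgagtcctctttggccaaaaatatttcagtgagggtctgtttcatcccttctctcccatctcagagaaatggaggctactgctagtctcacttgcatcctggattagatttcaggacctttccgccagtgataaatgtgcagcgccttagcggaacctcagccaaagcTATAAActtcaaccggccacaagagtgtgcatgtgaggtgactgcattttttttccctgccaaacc
The TATAAA match ended 60 bases before the gene's start, and 10.7% of 35116 upstream windows of the same length held this motif on either strand. The other motifs were searched on both strands too. They were the CCAAT box (CCAAT, in 32.0% of windows), the E-box (CACGTG, 6.34%) and the core bound by hypoxia-inducible factors (ACGTG, 18.5%, which overlaps the E-box). The remaining ones were the ATF4 composite element (TGATGNAA, 3.14%), the cAMP response element (TGACGTCA, 1.65%) and the AP-1 site (TGANTCA, 6.57%). Their letters were not in this window.

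The genes with the profile most like that of SLC16A14 were found by the root mean square difference of log2 values over arrays, each gene taken relative to its own control mean. SLC16A14 itself lay 2.71 log2 units from its control mean by this measure over 12 arrays. The nearest genes were ARRDC4, an alpha-arrestin gene, at a difference of 1.71, HHEX, a homeobox factor, at 1.77 and SLC40A1, which encodes the iron exporter ferroportin, at 1.80. So even the nearest profiles were far from it. At 12 h the Fk and control means were 5.11 and 2.91 for ARRDC4, 7.60 and 6.31 for HHEX, and 7.77 and 6.31 for SLC40A1. At 48 h the Fk and control means were 2.77 and 2.78 for ARRDC4, 6.12 and 5.23 for HHEX, and 6.41 and 5.57 for SLC40A1. ARRDC4, the nearest over all arrays, was thus under the level of 4 in both groups at 48 h, and its control means were under 4 at both times.

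Without Fk_12h replicate 3 the list was another one. Over these 11 arrays SLC16A14 lay 1.87 from its control mean, and the nearest genes were the long non-coding RNA gene MSC-AS1 at 1.10, the choline transporter-like gene SLC44A2 at 1.26 and the interferon-induced gene IFI44L at 1.28. MSC-AS1 read 4.46 and 4.39 on Fk_12h replicates 1 and 2, against 3.33, 2.84 and 3.74 on the control arrays at 12 h. At 48 h MSC-AS1 read 6.33, 5.14 and 5.43 in Fk cultures, against 4.53, 3.41 and 3.39 in control cultures. On these 11 arrays it was thus separated at both times, with most control arrays under the level of 4. On Fk_12h replicate 3 MSC-AS1 read 3.44, within the control range at 12 h, so with that array the groups overlapped. IFI44L read 5.89 and 5.54 on Fk_12h replicates 1 and 2, against 5.02, 4.92 and 3.89 on the control arrays at 12 h. On Fk_12h replicate 3 it read 4.10, within that control range. At 48 h IFI44L read 6.04, 5.66 and 4.88 in Fk cultures, against 5.15, 3.51 and 4.80 in control cultures, with an overlap. SLC44A2 was at 8.24 to 8.29 on Fk_12h replicates 1 and 2 and 8.76 to 9.39 in Fk cultures at 48 h, against 7.03 to 7.56 and 7.54 to 8.25 in control cultures at these times, without overlap. On Fk_12h replicate 3 it read 8.52, above the control arrays at 12 h. These genes were picked for a profile like that of SLC16A14, so nothing is read from their separation.

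SLC16A4 encodes MCT5, also without an established substrate. It was higher at 48 h than at 12 h in Fk cultures and in control cultures, and passed the test in both. RefSeq places it on chromosome 1 at 110362857 to 110391026 of GRCh38.p14, and it had a single probe set. In Fk cultures it read 11.05, 10.61 and 10.39 at 48 h, against 9.58, 9.51 and 9.08 at 12 h. In control cultures it read 11.09, 10.53 and 10.17 at 48 h, against 9.00, 8.91 and 8.89 at 12 h. All arrays at 48 h lay above all arrays of the same treatment at 12 h, as they did for 19.0% of all tested genes in Fk cultures and 25.1% in control cultures (38.7% and 50.0% were separated in either direction). The rise was 1.29 log2 units in Fk cultures (95% interval 0.75 to 1.83, adjusted p = 0.00573, limma) and 1.67 in control cultures (1.13 to 2.21, adjusted p = 0.00218, limma). Time changed many genes: 23.2% of all tested genes were called in Fk cultures and 21.5% in control cultures, 11.5% and 10.6% as higher. The Fk and control time courses share no array, but the test's estimate of spread is shared by all arrays. Same-numbered Fk and control arrays also deviated together in part at 48 h (correlations 0.798, -0.025 and 0.606). These tests are thus not independent.

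Markers moved with time as well, and their part in the members' changes was not tested. Of the epithelial markers, KRT8, a keratin, was lower at 48 h by limma, at -0.56 in Fk cultures (adjusted p = 0.0258) and -0.59 in control cultures (adjusted p = 0.0227). EPCAM, an epithelial adhesion molecule, was higher in control cultures, at 0.58 (adjusted p = 0.0492, limma), and KRT18, KRT19 and CDH1 did not pass in either treatment. The mean level of the 5 epithelial markers ranged over arrays from 11.13 to 11.68 at 48 h and 10.999 to 11.36 at 12 h in Fk cultures, and from 11.10 to 11.56 at 48 h and 11.16 to 11.26 at 12 h in control cultures. Of the markers of other cells, COL1A1, a collagen gene, was lower at 48 h in Fk cultures, at -0.87 (adjusted p = 0.0104, limma), and AQP2 and PECAM1 did not pass. The mean of the 5 measured markers of other cells ranged from 4.20 to 4.27 at 48 h and 4.47 to 4.67 at 12 h in Fk cultures, and from 4.32 to 4.38 at 48 h and 4.38 to 4.40 at 12 h in control cultures. PAX8 and CDH16, the genes listed as proximal tubule markers that could be tested, did not pass.

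SLC16A4 differed less between treatments than between times. At 12 h the Fk mean was 9.39 ± 0.27 and the control mean 8.93 ± 0.06 (SD, n = 3 each). All Fk arrays lay above all control arrays at that time, the lowest Fk value being 9.08 on replicate 3 and the highest control value 9.00. Of all tested genes, 9.91% were separated at 12 h with Fk higher, and 16.4% in either direction. The SLC16A4 difference was 0.46 log2 units, or 0.62 without Fk_12h replicate 3. At 48 h the Fk mean was 10.68 ± 0.34 and the control mean 10.60 ± 0.46, and the groups overlapped.

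The upstream window of SLC16A4 is shown beside that of SLC16A14 as that of the member whose brightest probe set was called with time in both treatments. It holds the 250 bases before the gene's start on the minus strand of GRCh38.p14 (RefSeq), at chr1:110391027-110391276, written 5′ to 3′. None of the searched motifs matched, so it has no capitals.
SLC16A4: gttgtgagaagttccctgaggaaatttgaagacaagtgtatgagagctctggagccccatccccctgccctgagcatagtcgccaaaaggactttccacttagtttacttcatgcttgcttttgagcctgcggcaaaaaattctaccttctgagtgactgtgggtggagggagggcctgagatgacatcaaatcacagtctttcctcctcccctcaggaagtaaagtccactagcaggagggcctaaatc

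SLC16A7 encodes MCT2, a transporter with high affinity for pyruvate and lactate. It was higher at 48 h than at 12 h on all of its 5 probe sets in Fk cultures and in control cultures, without overlap of the arrays. On 1 of these, 241866_at, every control array and every array at 12 h lay under 4, so its separation is not shown to be above background. All 5 probe sets measure 1 gene, and such a separation upwards was seen for 19.0% of all tested genes in Fk cultures and 25.1% in control cultures. RefSeq places it on chromosome 12 at 59596029 to 59789841 of GRCh38.p14. On the brightest probe set, 207057_at, the Fk cultures read 9.28, 8.71 and 9.54 at 48 h, against 7.76, 8.15 and 6.45 at 12 h. The control cultures read 9.25, 9.11 and 9.15 at 48 h, against 8.56, 7.82 and 7.94 at 12 h. The 3 control arrays at 48 h lay close together, whereas the Fk arrays at 12 h were spread by the low value of replicate 3.

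This probe set rose by 1.72 log2 units in Fk cultures (95% interval 0.85 to 2.58, adjusted p = 0.0126, limma). The rise was 1.22 without Fk_12h replicate 3, which also passed (adjusted p = 0.0130, limma), as did 25.8% of all tested genes, and the call ended when only the Fk arrays were fitted (adjusted p = 0.0763, limma). In control cultures the difference was 1.07 (0.20 to 1.93, adjusted p = 0.0755, limma) and did not pass. The estimate of spread in this test is shared by all arrays. Without Fk_12h replicate 3, which is not in that comparison but enters the spread, the same difference of 1.07 passed (adjusted p = 0.0111, limma), as did 31.9% of all tested genes.

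Fitted one by one among 21899 probe sets, of which 19.9% were called in Fk cultures and 17.9% in control cultures, 4 SLC16A7 probe sets could be tested. In Fk cultures all 4 passed, with rises of 1.72 to 2.79 log2 units. Without Fk_12h replicate 3 the rises were 1.21 to 2.22. Some 12 h values were under 4, on 241925_x_at those of all Fk arrays. With values under 4 taken as 4, the Fk rise was 2.37 for 230003_at and 1.64 for 241925_x_at. The control rise of 241925_x_at was then 1.77. In control cultures 230003_at (1.80, adjusted p = 0.0167, limma) and 241925_x_at (1.86, adjusted p = 0.0121, limma) passed, while 207057_at and 210807_s_at (1.07 each) did not. The remaining probe set, 241866_at, reached the level of 4 on 2 arrays, at 4.13 and 4.42 in Fk cultures at 48 h, and was not tested.

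**Figure D2:**
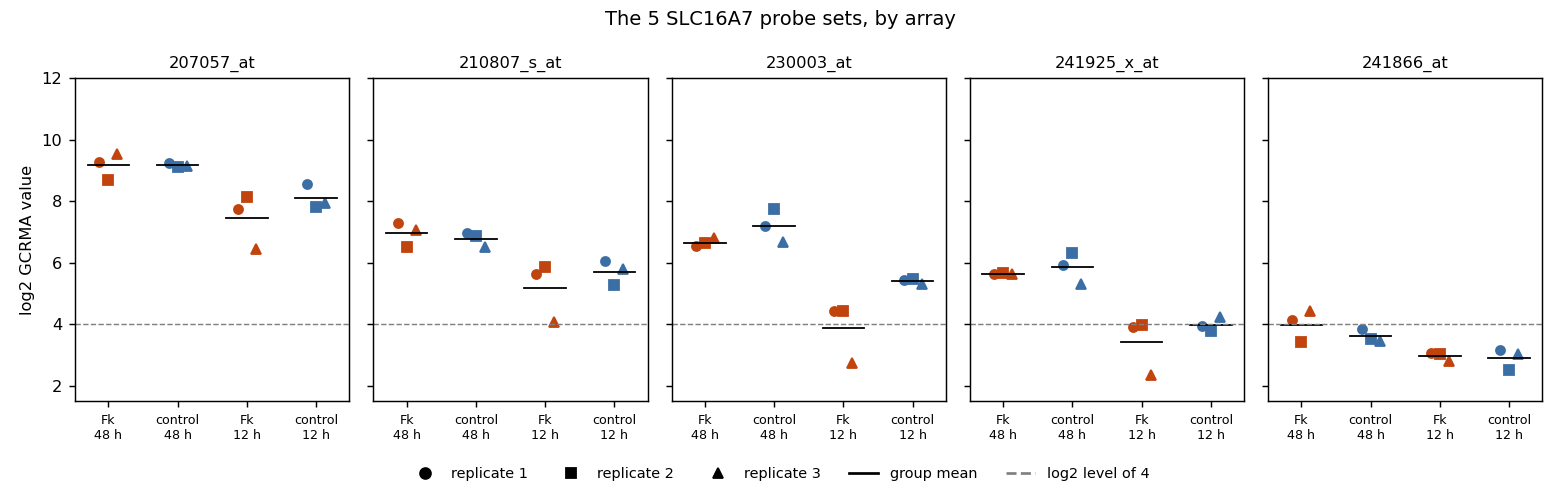
Log2 GCRMA value of the 5 SLC16A7 probe sets on each array, with the group mean as a bar and the level of 4 dashed. Each probe set was higher at 48 h than at 12 h, though 241866_at reached 4 on only 2 arrays. On 4 of the 5 probe sets Fk_12h replicate 3 was the lowest array.

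The SLC16A7 probe sets disagreed on the difference between Fk and control. On 230003_at the Fk cultures at 12 h read 4.44, 4.42 and 2.74, against 5.44, 5.49 and 5.30 in control cultures. The Fk arrays lay under all control arrays, and the difference was -1.54, or -0.98 without Fk_12h replicate 3. With values under 4 taken as 4, the difference over all arrays was -1.12. Of all tested genes, 16.4% were separated in either direction at 12 h. At 48 h the same probe set read 6.54, 6.63 and 6.80 in Fk cultures, against 7.19, 7.76 and 6.67 in control cultures, with an overlap. The other 3 probe sets that could be tested had differences of -0.65 to -0.53 at 12 h, which became -0.15 to 0.03 without Fk_12h replicate 3. Fk_12h replicate 3 deviated from the mean of the other Fk arrays by -1.70 to -1.50 log2 units on all 4 of these probe sets. At 48 h the brightest probe set averaged 9.17 ± 0.43 in Fk cultures and 9.17 ± 0.07 in control cultures (SD, n = 3 each), with overlap.

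**Figure D3:**
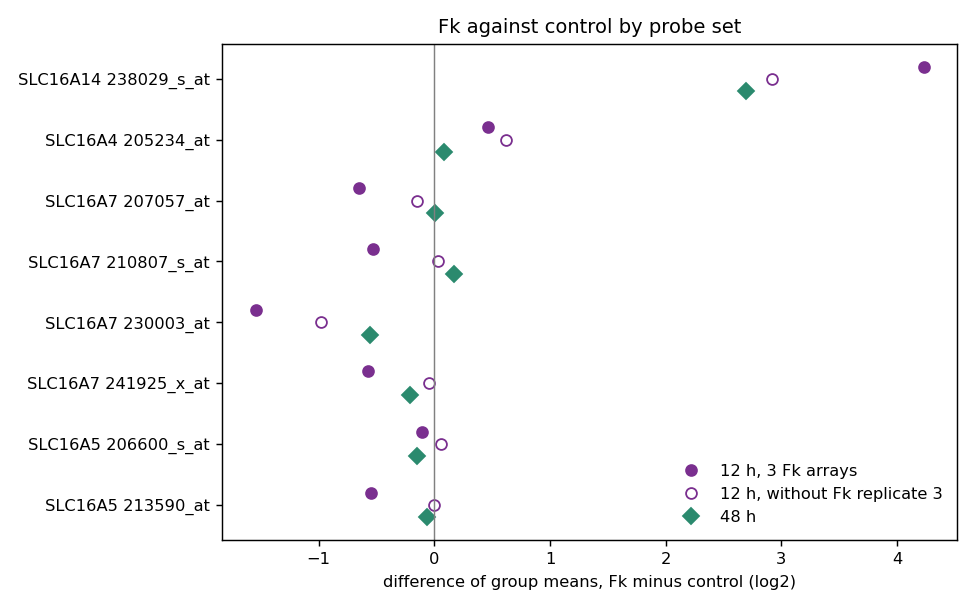
Difference of group means, Fk minus control, in log2 units for each probe set that could be tested, at 12 h with all 3 Fk arrays (filled circles), at 12 h without Fk_12h replicate 3 (open circles) and at 48 h (diamonds). SLC16A14 stood at 4.23, 2.91 and 2.69, and of the other probe sets 230003_at of SLC16A7 was farthest from 0, at -1.54, -0.98 and -0.55. Values under 4 were not raised to 4 here.

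SLC16A5 encodes MCT6, which is known to carry drugs such as bumetanide rather than lactate. Its brightest probe set, 206600_s_at, read 7.63, 7.63 and 7.06 in Fk cultures at 48 h, against 6.73, 7.28 and 6.52 at 12 h. In control cultures it read 7.78, 7.42 and 7.58 at 48 h, against 7.03, 7.18 and 6.64 at 12 h. The control arrays did not overlap between the times, and the Fk arrays did. Of all tested genes, 25.1% were separated upwards in control cultures and 50.0% in either direction. The differences, 0.60 in Fk cultures (95% interval 0.08 to 1.12, adjusted p = 0.0890, limma) and 0.64 in control cultures (0.13 to 1.16, adjusted p = 0.0736, limma), did not pass. The Fk difference passed without Fk_12h replicate 2 (0.82) and without Fk_48h replicate 3 (0.79), and the control difference passed without Fk_12h replicate 3 (adjusted p = 0.0477, limma). Each of these differences passed in 4 of the 24 other settings, these among them.

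Fk and control arrays of SLC16A5 overlapped at both times. The Fk and control means of 206600_s_at were 6.84 ± 0.39 and 6.95 ± 0.28 at 12 h, and 7.44 ± 0.33 and 7.59 ± 0.18 at 48 h (SD, n = 3 each). A second probe set, 213590_at, read 6.57, 6.42 and 4.86 in Fk cultures at 12 h, against 6.57, 6.34 and 6.59 in control cultures. The low value was again that of Fk_12h replicate 3, and without it the means differed by -0.004. The third probe set, 206599_at, stayed under the level of 4, with 3.97 as its highest value.

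SLC16A9 encodes MCT9, which has been linked to carnitine and urate transport. Its only probe set lay under 4 on all 12 arrays, so the gene was not tested. It read 2.32 to 3.24 in Fk cultures at 12 h, against 2.12 to 3.00 in control cultures. At 48 h it read 2.26 to 2.66 in Fk cultures, against 2.12 to 2.29 in control cultures. These values are near the array medians and give no level.

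**Figure D4:**
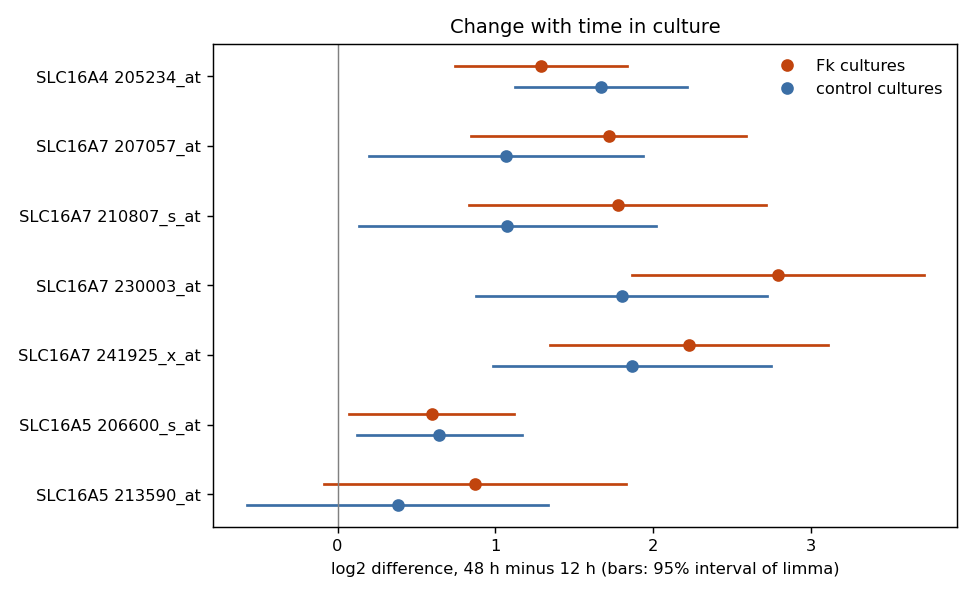
Log2 difference of 48 h minus 12 h in Fk and in control cultures for the probe sets of SLC16A4, SLC16A7 and SLC16A5 that could be tested, each fitted as its own feature, with 95% intervals of limma. All 14 differences were above 0, and the intervals of Fk and control cultures overlapped for every probe set. Several probe sets measure the same gene, so these differences are not independent. SLC16A14 is not drawn: it was lower at 48 h in Fk cultures (-1.89, or -0.57 without Fk_12h replicate 3) and under 4 in control cultures.

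The change with time is set side by side between treatments as the Fk effect at 48 h minus that at 12 h, as a description. It was -0.38 log2 units for SLC16A4, -0.05 for SLC16A5, 0.65 for SLC16A7 and -1.54 for SLC16A14. Without Fk_12h replicate 3 it was -0.53 for SLC16A4, -0.21 for SLC16A5, 0.15 for SLC16A7 and -0.22 for SLC16A14. So the value of SLC16A14 moved most with that array and that of SLC16A7 next. Those of SLC16A4 and SLC16A5 moved less, by similar amounts. Over all tested genes limma called 0% in this contrast, with 357 genes at an unadjusted p under 0.05. For Fk against control it called 0% of all tested genes at each time, with 724 genes at 12 h and 559 at 48 h at an unadjusted p under 0.05.

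Of the other SLC16 genes, SLC16A8 and SLC16A10 had probe sets. All 4 of these were under the level of 4 on every array, as were the sodium-coupled lactate carriers SLC5A8 and SLC5A12. The 3 chaperone genes were measured. EMB, the embigin gene, fell with time: it averaged 6.32 ± 0.49 at 48 h and 7.20 ± 0.37 at 12 h in Fk cultures, and 5.83 ± 0.38 at 48 h and 6.87 ± 0.08 at 12 h in control cultures (SD, n = 3 each). The differences were -0.88 in Fk cultures (adjusted p = 0.0410, limma) and -1.03 in control cultures (adjusted p = 0.0243, limma). Each of these calls was close to the threshold. That in control cultures ended without control_12h replicate 1, 2 or 3 or control_48h replicate 1 or 2, at -1.06 to -0.92. That in Fk cultures ended without Fk_12h replicate 1 or 2, Fk_48h replicate 1 or 2, control_12h replicate 1, 2 or 3 or control_48h replicate 2, at -1.02 to -0.60.

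BSG, the basigin gene, did not pass with time, at -0.25 in Fk cultures and -0.32 in control cultures, though the control difference passed without control_48h replicate 3 (-0.55). It was -0.15 without control_12h replicate 3 and -0.17 without control_48h replicate 1. At 12 h its Fk mean was 11.03 ± 0.13 and its control mean 10.58 ± 0.29 (SD, n = 3 each). Its arrays did not overlap then, as for 9.91% of all tested genes with Fk higher. At 48 h its Fk mean was 10.79 ± 0.10 and its control mean 10.26 ± 0.40, with overlap. These differences, 0.45 and 0.53, did not pass (adjusted p = 0.745 and 0.903, limma). NPTN, the neuroplastin gene of the same immunoglobulin family, passed in none of the 5 contrasts.

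Among 18 tested genes of lactate and pyruvate metabolism, 5 were called with time in Fk cultures, 3 higher and 2 lower, and 3 in control cultures, 2 higher and 1 lower. Of all tested genes, 23.2% were called in Fk cultures and 21.5% in control cultures, so these counts are near the shares of all genes. The list's median difference with time was 0.15 in Fk cultures and 0.13 in control cultures, against 0.02 and 0.01 over all tested genes. PDK1, a kinase that holds back pyruvate oxidation, rose by 0.79 ± 0.16 in Fk cultures and 0.73 ± 0.16 in control cultures (SE). PDP1, the phosphatase that acts against such kinases, rose by 1.75 ± 0.45 in Fk cultures. PDHX, a subunit of the pyruvate dehydrogenase complex, rose by 0.42 ± 0.11 there, and ME1, the cytosolic malic enzyme, rose by 0.51 ± 0.14 in control cultures. PKM, pyruvate kinase, had -0.58 ± 0.17 in Fk cultures and -0.65 ± 0.17 in control cultures, and both passed. LDHC, a lactate dehydrogenase subunit best known from testis, had -0.79 ± 0.23 in Fk cultures, which passed. LDHA and LDHB, the main lactate dehydrogenase subunits, had -0.14 and 0.13 in Fk cultures and -0.26 and 0.16 in control cultures, and did not pass. With Fk against control, 0 of these 18 genes passed by limma at either time, and the list's median was -0.04 at 12 h and -0.10 at 48 h.

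Several of these calls ended when 1 array was left out, most of them with a difference that moved little. The PDP1 rise in Fk cultures ended without Fk_48h replicate 1 or 2 (1.76 and 1.68) and was 1.09 without Fk_12h replicate 3, with which PDP1 in Fk cultures at 12 h had an SD of 1.15. The PDP1 difference in control cultures, 0.89, passed without Fk_12h replicate 3. The PDHX call ended without Fk_12h replicate 1 or Fk_48h replicate 1 or 2 (0.37 to 0.44), and that of LDHC without Fk_48h replicate 1 or 2 (-0.73 and -0.78), while LDHC was -0.50 without Fk_12h replicate 3. The ME1 call ended without control_12h replicate 2 or 3 or control_48h replicate 2 or 3 (0.43 to 0.48). The PDK1 call in control cultures ended without control_12h replicate 2 (0.62) or control_48h replicate 1 (0.68). The PKM call in control cultures ended without control_12h replicate 2 or 3 or control_48h replicate 1 or 2 (-0.62 to -0.58). In Fk cultures it ended without Fk_12h replicate 1 or 2, Fk_48h replicate 1 or 2, or control_12h replicate 2 or 3 (-0.58 to -0.48).

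Of 4 tested ketone body enzymes, BDH1, which interconverts the ketone bodies, rose in Fk cultures by 0.69 ± 0.17 (SE), and this call ended without Fk_48h replicate 1 (0.65). OXCT1, which activates ketone bodies for use, fell by 0.58 in control cultures. This call ended without control_12h replicate 1, 2 or 3 or control_48h replicate 1 or 2 (-0.61 to -0.47), and OXCT1 also passed in Fk cultures without Fk_12h replicate 3 (-0.56, against -0.43 with it). SLC22A5, the sodium-dependent carnitine transporter, fell by 0.98 in control cultures, a call that ended without any of the 6 control arrays (-1.12 to -0.86). In Fk cultures its difference of -0.82 did not pass, but it passed without Fk_12h replicate 1 (-1.04) or 2 (-0.996) and was -0.43 without Fk_12h replicate 3. Over all these lists, 7 of 27 tested genes were called with time in Fk cultures and 6 of 27 in control cultures, shares near those of all genes.

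**Figure D5:**
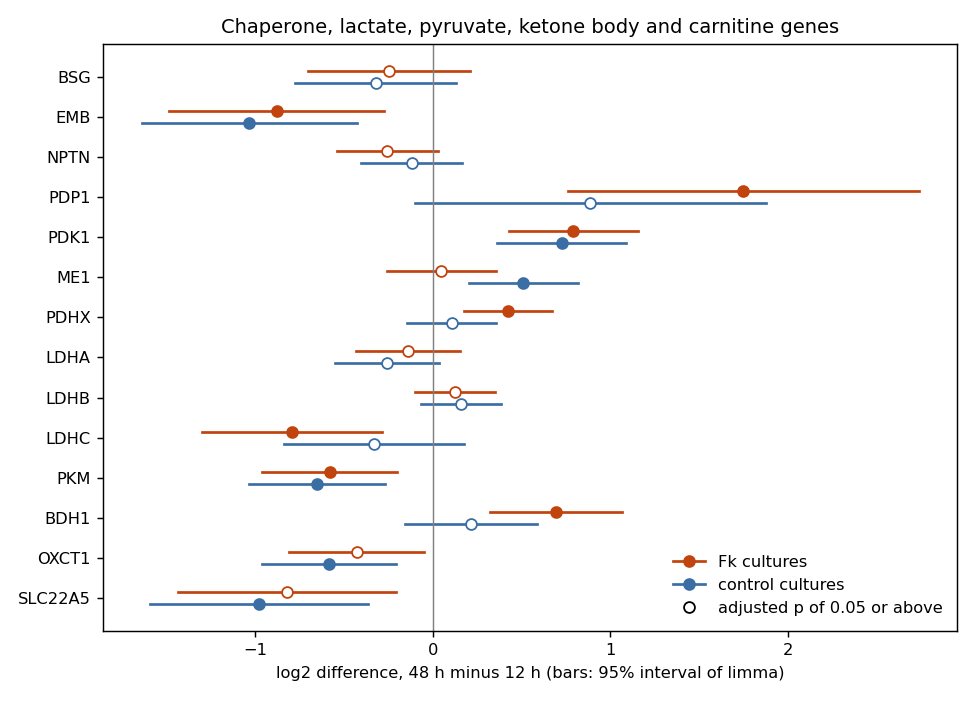
Log2 difference of 48 h minus 12 h in Fk and in control cultures for the chaperone genes and the named genes of lactate, pyruvate, ketone body and carnitine handling, with 95% intervals of limma. Filled points passed at an adjusted p of 0.05: PDP1, PDK1, PDHX and BDH1 as higher and EMB, LDHC and PKM as lower in Fk cultures, and PDK1 and ME1 as higher and EMB, PKM, OXCT1 and SLC22A5 as lower in control cultures.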

How the data were processed

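RNA of 12 HK-2 cultures was measured on Affymetrix arrays with 54675 probe sets. The deposited values were taken as log2 from their range. They are GCRMA values, per the submitters' processing notes; its version, and whether other arrays were normalized with these, are not given in the sources used here. Gene names came from a platform annotation, in which 41097 probe sets had 1 symbol, 1801 several and 11777 no listed symbol.

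Group means over all 12 arrays were fitted in limma 3.58.1 (R 4.3.3). Its moderated two-sided test had 8 residual degrees of freedom and 2.44 from the prior, and p-values were adjusted by Benjamini-Hochberg over 10784 genes, with a threshold of 0.05. Fk was set against control within each time, 48 h against 12 h within each treatment, and the interaction was tested. The number of arrays limits precision: the 95% interval had a median half-width of 0.447. Without separate sources named for the arrays, p-values measure the spread between these samples. The planned counts of members called for Fk against control and for the interaction are left out, because the family was chosen on those values. The members and the lists of partner genes and markers were chosen with earlier results of these data known. Named were all members, BSG, EMB, LDHA, LDHB, the markers, partner genes called in a time contrast (up to 4 per list and contrast, by adjusted p) and the 3 nearest profiles to SLC16A14; NPTN, SLC16A8, SLC16A10 and the SLC5A carriers were added after their values were seen. Array weights used limma's gene-by-gene method, as its REML fit did not converge. In all, 24 other settings were tried, 1 of them chosen after seeing the data, and so was the fit of every probe set on its own. The gene test was checked on simulated data. Same-numbered arrays of Fk and control deviated together in part: correlations were 0.041 to 0.265 at 12 h, and 0.798, -0.025 and 0.606 at 48 h. Between the times they were -0.139 to 0.054. No block entered the main fit, so its tests of Fk against control ignore such pairing. With a replicate block, 1 of the other settings, 1 gene was called at 12 h and 0 at 48 h. Plots were drawn in Python 3.11.15 (pandas 2.3.3, matplotlib 3.10.9).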

Additional observations from a re-analysis of the deposited data

How the results depend on the processing

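The SLC16A4 rise with time kept its direction and passed in all 24 other settings, at 1.10 to 1.44 in Fk cultures and 1.42 to 1.88 in control cultures. Members called with time in control cultures numbered 1 of 4 tested. They numbered 2 with the mean of probe sets, 3 with array weights and 3 with only the groups compared. They numbered 3 with the replicate block without Fk_12h replicate 3 and 1 to 3 without single arrays. In Fk cultures they numbered 2, 1 with only the groups compared and 2 to 3 without single arrays. The added member was SLC16A5 without Fk_12h replicate 2 or Fk_48h replicate 3. Without Fk_12h replicate 3 it was SLC16A14 (-0.57). SLC16A14 was chosen on its Fk values, so nothing is read from that count. SLC16A5 passed in Fk cultures in 4 of the 24 other settings, some of which left out no array. Partner genes called with time were 6 in control cultures, 3 without a filter, 11 with array weights, 1 with the replicate block and 0 to 9 without single arrays. In Fk cultures they were 7, 3 without a filter, 14 with array weights, 0 with only the groups compared, 4 with the replicate block and 1 to 9 without single arrays. All genes called with time were 2314 in control cultures (4920 with array weights, 1060 to 3438 without single arrays) and 2500 in Fk cultures (5345 with array weights, 831 with only the groups compared, 1297 to 2787 without single arrays). For Fk against control 0 genes were called. At 12 h the counts were 1 with values under 4 set to 4, 156 with array weights, 1 with the replicate block, 3 with the block without Fk_12h replicate 3 and 0 to 3 without single arrays. At 48 h they were 1 without a filter, 1 with the filter at 6, 4 with the mean of probe sets, 1 after centring on the upper quartile, 94 with array weights, 1 with only the groups compared, 4 with the block without Fk_12h replicate 3 and 0 to 1 without single arrays. Array weights gave Fk_12h replicate 3 a weight of 0.121. The ME1 difference in Fk cultures, 0.05, turned to -0.046 after centring on the upper quartile, -0.052 with array weights, -0.033 with the replicate block without Fk_12h replicate 3 and -0.0073 without that array (up to 0.14 without other single arrays). Where fewer arrays or groups entered, fewer degrees of freedom were left; otherwise the cause was not tested. The interaction could not be refitted with only the groups compared, since it uses all 4. Each array correlated best with its own number for 6 of 6 arrays between Fk and control at 12 h, 4 of 6 at 48 h, and 0 of 6 and 3 of 6 between the times in Fk and control cultures.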
